A study of Mus musculus with 6 samples.

Results

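Heat shock proteins and their partner families keep other proteins folded, and their RNA was followed here in colon and liver of mice with chemically induced colitis. The genes were chosen by symbol alone, as those whose array annotation gives exactly 1 symbol that begins with Hsp, Dnaj, Cct and a digit, or Bag and a digit, with the 6 endoplasmic reticulum (ER) genes Hspa5, Hsp90b1, Hspa13, Dnajb9, Dnajb11 and Dnajc3 left out. This gave 82 genes with 195 probe sets, of 18194 genes with 34958 probe sets named by a single symbol. They are 26 DNAJC, 11 DNAJB and 4 DNAJA genes, 12 genes of HSP70 and HSP110 proteins, 9 chaperonin (CCT) genes, 8 small heat shock protein genes, 6 BAG genes, the mitochondrial pair Hspd1 (HSP60) and Hspe1 (HSP10), Hsp90aa1, and 3 others that share the letters. Not all of these genes encode cytosolic chaperones. For at least 16 of the 82, the product is known to act in mitochondria, the ER or outside the cell, or is neither a chaperone nor a helper. Examples are Hspa9, Hspd1 and Hspe1 in mitochondria, Dnajc10 in the ER, and Hspg2, which encodes perlecan, a basement membrane proteoglycan.

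Male C57BL6/J mice, 7 weeks old, made up 3 groups. DSSPAR mice ate a basal diet supplemented with 2% parsley and drank plain water for 7 days and then 1.5% (w/v) dextran sodium sulphate, which damages the lining of the colon and is used to induce colitis, for 9 days. DSS mice ate the basal diet and had the same water and polymer, for 10 days by their own treatment label, so diet and 1 day of exposure differed together between DSSPAR and DSS. A shared husbandry label gives 9 days, worded after the DSSPAR group, and leaves the duration for DSS unsettled. CON mice had the basal diet and plain water. For either tissue, RNA from the 7 animals in a group was combined and hybridised once, so 6 arrays gave 6 single values per probe set. Each difference below sets 1 pool beside another, without replicates and without any p-value. In whole tissue, fewer cells of a type and less RNA per cell cannot be told apart.

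Heat shock genes are switched on by the transcription factor HSF1 when unfolded proteins build up; HSF1 binds heat shock elements, runs of the unit nGAAn in alternating orientation. HSP70 proteins bind unfolded stretches under the control of J-domain proteins of the DNAJ classes, which deliver clients and stimulate ATP hydrolysis, and of exchange factors such as HSP110 and BAG proteins, which release ADP. HSP90 completes the folding of kinases and steroid receptors, small heat shock proteins hold unfolded proteins without using ATP, and the ring-shaped chaperonin CCT folds actin and tubulin. HSP60 and HSP10 form the chaperonin of the mitochondrial matrix. In the intestinal epithelium Hspb1 and inducible HSP70 are known as protective proteins.

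Promoters of 4 of the genes to which the results return are shown because their windows hold heat shock elements. Windows run from 250 bases before to 50 bases after the annotated start, are RefSeq sequence of build GRCm38.p6, and are written 5′ to 3′ on the gene's strand. Capitals mark every GAANNTTC or TTCNNGAA, the pair of inverted units, which reads alike on both strands; overlapping pairs form a run of 3 units. The windows are Hspb1 at chr5:135887669-135887968 on the plus strand, Hsph1 at chr5:149636266-149636565 on the minus strand, Hspe1 at chr1:55087898-55088197 on the plus strand and Bag3 at chr7:128523333-128523632 on the plus strand.
Hspb1: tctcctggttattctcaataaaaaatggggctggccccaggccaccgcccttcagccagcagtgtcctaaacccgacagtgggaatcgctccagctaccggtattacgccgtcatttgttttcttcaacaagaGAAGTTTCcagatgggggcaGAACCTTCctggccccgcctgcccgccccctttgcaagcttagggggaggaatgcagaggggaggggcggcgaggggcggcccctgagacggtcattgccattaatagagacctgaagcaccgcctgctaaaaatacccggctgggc
Hsph1: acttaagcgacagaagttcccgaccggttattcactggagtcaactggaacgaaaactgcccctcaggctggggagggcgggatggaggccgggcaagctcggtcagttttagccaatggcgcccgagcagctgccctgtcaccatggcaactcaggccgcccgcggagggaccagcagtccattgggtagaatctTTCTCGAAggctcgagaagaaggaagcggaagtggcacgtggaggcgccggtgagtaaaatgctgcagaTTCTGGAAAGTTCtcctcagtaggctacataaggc
Hspe1: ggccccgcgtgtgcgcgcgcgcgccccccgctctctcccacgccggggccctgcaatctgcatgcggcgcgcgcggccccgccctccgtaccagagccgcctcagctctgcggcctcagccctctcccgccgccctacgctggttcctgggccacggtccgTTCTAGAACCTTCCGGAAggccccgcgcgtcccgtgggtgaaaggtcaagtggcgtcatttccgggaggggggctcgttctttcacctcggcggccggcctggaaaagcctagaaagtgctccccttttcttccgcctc
Bag3: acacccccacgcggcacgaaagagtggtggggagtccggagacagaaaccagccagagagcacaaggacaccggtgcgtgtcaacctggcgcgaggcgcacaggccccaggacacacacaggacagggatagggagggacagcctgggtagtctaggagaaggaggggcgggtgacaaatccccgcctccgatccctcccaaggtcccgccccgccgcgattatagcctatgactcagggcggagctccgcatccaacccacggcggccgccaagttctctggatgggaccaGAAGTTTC
Hspb1, a small heat shock protein gene, has 2 separate pairs, which begin 97 and 117 bases upstream of the start. Hsph1, which encodes an HSP110 exchange factor for HSP70, has 1 pair 54 bases upstream and a run of 3 units that begins 20 bases downstream. In Hspe1 a longer run holds 3 overlapping pairs, the first beginning 89 bases upstream. Its window overlaps that of Hspd1 on the opposite strand by 285 bases, since these partner genes start back to back. In Bag3, which encodes an exchange factor that also binds small heat shock proteins, the pair begins 42 bases downstream of the start.

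A pair was found in 23 of the 88 windows of these families (26.1%), which belong to 21 of the 68 genes with a window, and in 15.1% of all 32851 windows. A run of 3 units was found in 6 of the 88 windows (6.82%), belonging to Dnajb6, Hspd1, Hspe1 and Hsph1, against 0.603% of all windows. A match describes letters in a window and is not evidence of binding. Some genes with several starts have windows that overlap each other, as Dnajb6 and Hsph1 do. Hspd1 and Hspe1 hold the same run, in the stretch that their windows share, and it is counted for both. The 6 windows thus hold fewer separate runs than windows.

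The values are MAS5 intensities on a linear scale, and many genes have several probe sets. Colon and liver arrays were scaled apart, so levels are not compared between tissues, nor between probe sets. The floor was the median over all 3 arrays of a tissue, 25.1 in colon and 96.6 in liver, and a gene counts as measured where either of the arrays compared exceeds it. Array medians differed by -0.08 to -0.28 log2 units between colon arrays and by -0.15 to -0.31 between liver arrays. Centring the arrays on their medians would raise the median ratio of all measured genes to between 0.12 and 0.30, so a family's direction is read beside that of all genes. Robust SDs of the difference between 2 probe sets of 1 gene were 0.35 to 0.40 log2 units in colon and 0.44 to 0.52 in liver. The geometric mean of 9 hybridisation control probe sets differed by at most 0.16 log2 units between colon arrays, but it was 1.02 log2 units lower in liver DSSPAR than in liver DSS and 0.52 higher in liver DSS than in liver CON. All 10 colonocyte markers lay above the floor in each colon array, and all 10 hepatocyte markers in each liver array.

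Of the 82 genes, 68 lay above the floor in all 3 colon arrays, 2 in some of them (Dnajb8 and Dnajc6) and 12 in none. In liver 66 lay above it in all 3 arrays, 4 in some (Cct8l1, Dnajc18, Dnajc27 and Dnajc6) and 12 in none. Cct6b, Dnajb3, Dnajb7, Dnajc5b, Dnajc5g, Hspa12b, Hspa1l, Hspb3 and Hspb9 were under the floor in every array of both tissues. Several of these, such as Hspa1l, Dnajb3 and Hspb9, are known as testis genes. Hspa12a and Hspb7 were read only in colon, as was Hspa1a, whose 3 liver values lay between 84.4 and 86.7. Dnajb13 and Cct8l1 were read only in liver, and so was Dnajc27.

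In colon the comparison of DSS with CON concerned the response of the tissue to the polymer. Chaperone RNA was mostly somewhat higher in DSS colon, led by the mitochondrial HSP60 and HSP10 pair, Hspb1, and the HSP70 and HSP110 genes. Among 70 measured members, 2 were at least 2-fold higher in DSS, Hspe1 and Hspb1 (5.18% of all 11952 genes measured were), and 0 were at least 2-fold lower (1.97% of all genes). The share past 2-fold in either direction was 2.86% of members and 7.15% of all genes. Of the 70, 51 lay above 0 (72.9%, against 54.1% of all genes), and their median log2 ratio was 0.22 against 0.04 for all genes. At 1.5-fold, 12 members (17.1%) were higher and 3 (4.29%) lower, where 12.8% and 7.75% of all genes were.

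**Figure D1:**
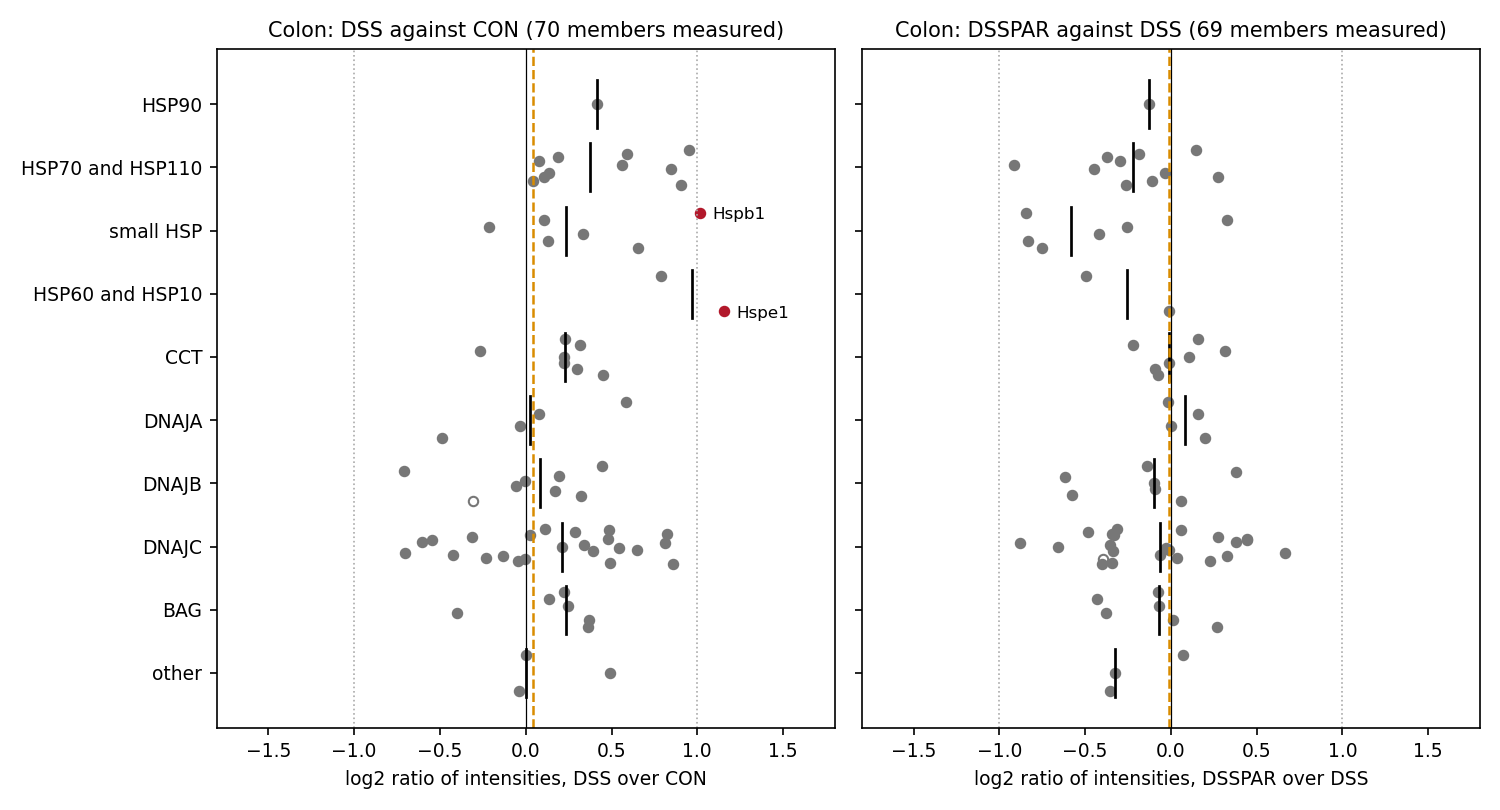
Log2 ratios of intensities in colon for each measured member, by family, with DSS over CON on the left and DSSPAR over DSS on the right. Black bars are family medians, the dashed line is the median of all measured genes, dotted lines mark 2-fold, and open circles have 1 array at the floor. In DSS against CON the 10 HSP70 and HSP110 genes all lie above 0 by the probe set that represents each gene. In DSSPAR against DSS no member passes 2-fold, and 5 of 6 small heat shock protein genes lie below 0.

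The mitochondrial chaperonin pair stood highest among the families. Hspe1, which encodes the HSP10 lid, had an intensity of 1421 in DSS colon, against 639 in CON colon, a 2.23-fold difference (log2 1.15). Its other probe set read 544 in DSS and 281 in CON. Hspd1, the HSP60 ring subunit, read 2169 in DSS and 1255 in CON, 1.73-fold higher (log2 0.79). Both genes were higher in DSS under every scaling tried, with a pair median between 0.87 and 1.06 log2 units. The pair's mitochondrial partner Hspa9, the matrix HSP70, read 978 in DSS and 949 in CON (log2 0.04) by its representative probe set. As the mean over its probe sets, the Hspa9 ratio came to 0.64. How far Hspa9 went with the pair thus depends on the probe set read.

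Among small heat shock protein genes, Hspb1 had intensities of 806 in DSS colon and 398 in CON colon, 2.02-fold higher (log2 1.02), and its other probe set read 512 and 247 in the same order of groups (log2 1.05). When arrays were centred on their above-floor probe sets, or quantile normalized, the Hspb1 ratio was just under 2-fold (log2 1.00 when rounded, and 0.92). With probe sets of shared type left out, Hspb1 had no ratio. Hspb8, whose product works with Bag3 to pass aggregates to autophagy, read 198 in DSS and 126 in CON (log2 0.65), with 1 of its 3 probe sets the other way. Hspb6 read 128 in DSS and 101 in CON (log2 0.34). Hspb2, a muscle small heat shock protein gene, was the only one of the 6 measured below 0, with 38.0 in DSS and 44.1 in CON (log2 -0.21). The family's median was 0.23.

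All 10 measured HSP70 and HSP110 genes lay above 0 in DSS against CON, with a median of 0.37, though only 8 of 10 did with quantile normalized arrays. As means over probe sets, Hspa14 came to -0.18 and Hspa4 to -0.10. Hspa12a, a distant HSP70 relative, read 63.7 in DSS and 32.9 in CON (log2 0.95), near the floor of 25.1. Hsph1 read 331 in DSS and 177 in CON (log2 0.91), and its other probe set 177 and 98.9. Hspa4, another HSP110 gene, showed 889 in DSS and 495 in CON (log2 0.85) by its representative probe set, but its 2 other probe sets well above the floor were lower in DSS, 186 against 212 and 471 against 576. The stress-inducible Hspa1b was nearly level, at 820 in DSS and 777 in CON (log2 0.08). Its near-identical copy Hspa1a read 107 in DSS and 94.0 in CON (log2 0.19), and short probes may not separate the copies. The constitutive Hspa8 read 5327 in DSS and 4949 in CON (log2 0.11). Inducible HSP70 genes thus lay in the lower part of a family whose ratios ran from 0.04 to 0.95.

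Hsp90aa1, the inducible cytosolic HSP90, was higher in DSS by all 3 of its probe sets above the floor. They read 2592, 1554 and 1026 in DSS colon, against 1940, 907 and 769 in CON colon, and the representative one gave a log2 ratio of 0.42. Chaperonin genes lay close together, with 6 of 7 above 0 and a median of 0.23. Cct8 was the highest at 690 in DSS and 506 in CON (log2 0.45), and Cct4 the only one lower, at log2 -0.27 with all 6 of its probe sets on that side. Among BAG genes 5 of 6 lay above 0, with a median of 0.24. Bag3 itself read 256 in DSS and 215 in CON (log2 0.25), and Bag4, which encodes a silencer of death domains, was lower at 91.7 in DSS and 121 in CON (log2 -0.40), although another of its probe sets read 75.4 in DSS and 64.3 in CON (log2 0.23).

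J-domain genes were the most mixed. DNAJA genes split 2 above and 2 below 0, DNAJB genes 4 and 4, and DNAJC genes 14 and 9. Dnaja1, an HSP70 partner induced by heat, read 1057 in DSS and 705 in CON (log2 0.58), but its other probe sets had smaller gaps, 443 against 442 and 482 against 407. Dnajb1, the main inducible J protein, read 423 in DSS and 310 in CON (log2 0.45), and its other probe set gave 0.47. Dnajc9, a J protein that is also a histone chaperone, read 278 in DSS and 153 in CON (log2 0.86). Dnajc12 read 175 in DSS and 99.0 in CON (log2 0.82), and Dnajc15, of the mitochondrial import motor, 537 and 386 (log2 0.48). The ER membrane gene Dnajb12 was the lowest member, at 45.5 in DSS and 74.4 in CON (log2 -0.71), but its other probe set read 46.8 and 48.5. Among members with several probe sets above the floor, 26 of 43 had all of them on 1 side (60.5%), close to the 57.1% of all such genes.

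Colon of DSSPAR mice was set against that of DSS mice for what went with the parsley diet and, by the labels, 1 day less of polymer. No member passed 2-fold, 0 higher (0.392% of 11730 genes) and 0 lower (1.24% of genes, and 1.64% in either direction). The clearest difference among the families was in the small heat shock protein genes, of which 5 of 6 were lower in DSSPAR, with a family median of -0.58. That median stayed between -0.39 and -0.58 under every scaling tried. Over all 69 measured members 46 lay below 0 and 23 above, and the median was -0.09 against -0.01 for all genes. Centring arrays on their medians turned the members' median to 0.11, but it also put that of all genes at 0.18, so members lay a little under all genes either way. At 1.5-fold, 7 members (10.1%) were lower and 1 (1.45%) higher, where 6.1% and 3.21% of all genes were.

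Hspb1 had intensities of 448 in DSSPAR colon and 806 in DSS colon, and 258 and 512 by its other probe set (log2 -0.85 and -0.99). The CON array stood at 398 and 247, so the DSSPAR values lay nearer to CON than to DSS. Hspb8 read 118 in DSSPAR, 198 in DSS and 126 in CON (log2 -0.75 for DSSPAR against DSS), and 2 further probe sets had the same sign. Of these, 1 read 33.1, 65.9 and 46.5 in DSSPAR, DSS and CON, and the other 25.3, 34.7 and 39.5, with CON the high array. Hspb7, a small heat shock protein gene of heart and other muscle, read 42.3 in DSSPAR, 75.3 in DSS and 68.8 in CON (log2 -0.83), and Hspb6 95.8, 128 and 101 (log2 -0.42). Hspb11, which despite its symbol encodes a subunit of ciliary transport, was the exception at 456 in DSSPAR, 363 in DSS and 336 in CON (log2 0.33). By the representative probe sets of Hspb1, Hspb8 and Hspb6 the DSS array was thus the high one, with DSSPAR and CON within 0.17 log2 units of each other.

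**Figure D2:**
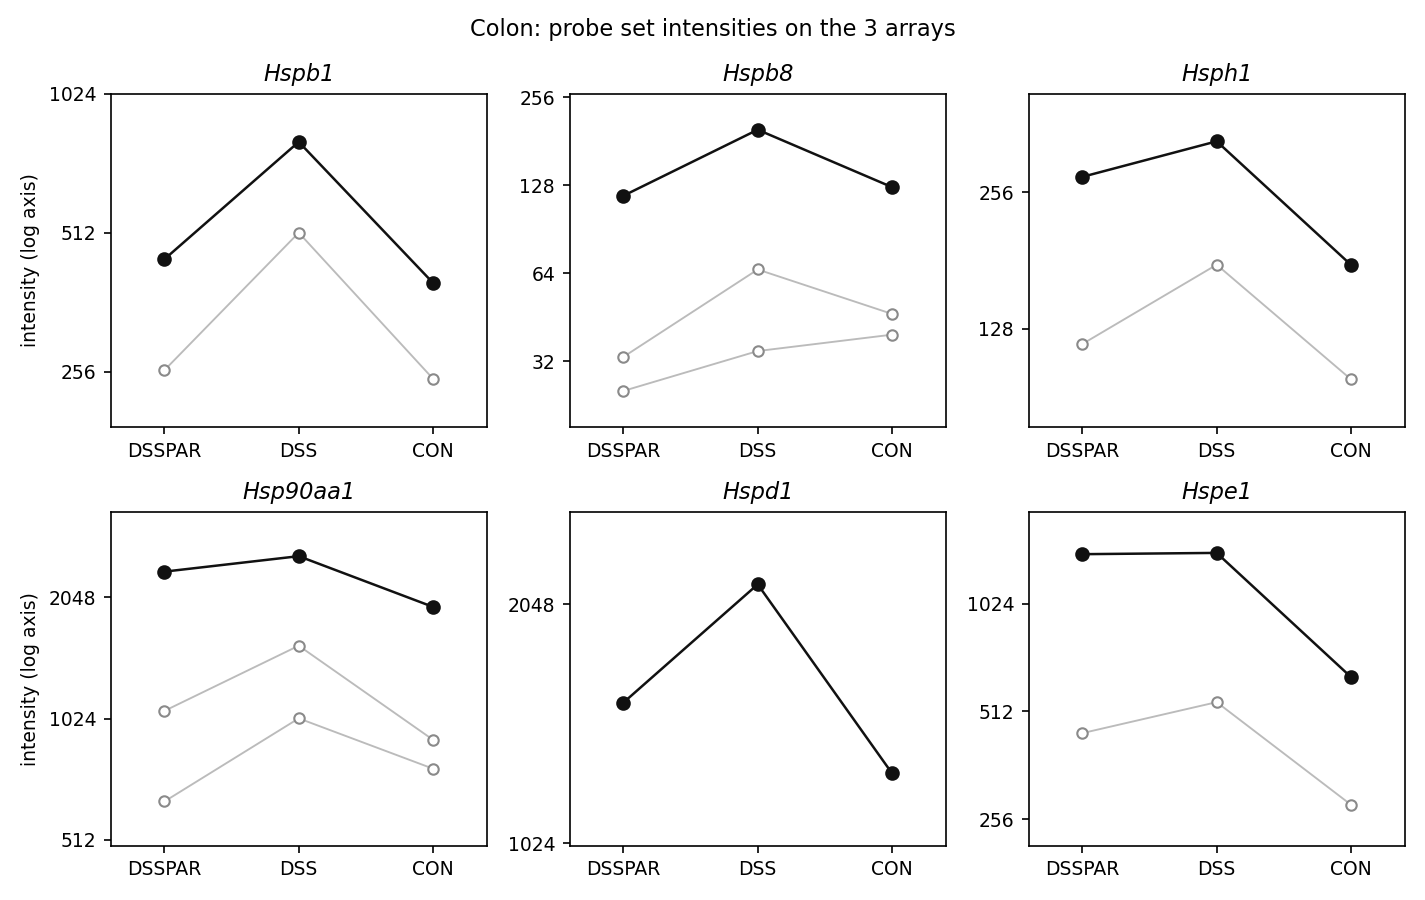
Intensities on the 3 colon arrays for 6 genes, on a log axis, with DSSPAR, DSS and CON from left to right. Filled points and black lines are the probe set that represents the gene, and open points are its other probe sets above the floor in at least 1 array. Both probe sets of Hspb1 and 2 of the 3 of Hspb8 are highest in DSS, while Hspe1 reads 1409.65 in DSSPAR and 1421 in DSS, both above the 639 of CON.

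Among HSP70 and HSP110 genes 8 of 10 were below 0 in DSSPAR against DSS, with a median of -0.22. Relative to the median of all genes this was -0.21, and -0.20 with arrays centred on their medians, with 8 of 10 below it in both settings. Hspa2, an HSP70 gene best known from spermatogenesis, read 64.4 in DSSPAR, 122 in DSS and 82.3 in CON (log2 -0.92), the largest ratio of any member here. Hsph1 read 277 in DSSPAR and 331 in DSS (log2 -0.26), and 118 and 177 by its other probe set. Hspa8 went the other way, at 6439 in DSSPAR and 5327 in DSS (log2 0.27), with all 4 probe sets on that side. Hspd1 read 1540 in DSSPAR and 2169 in DSS (log2 -0.49), while its partner Hspe1 was level (log2 -0.01), and Hspe1's other probe set read 445 and 544. Hsp90aa1 was at 2373 in DSSPAR and 2592 in DSS (log2 -0.13), but its 2 other probe sets above the floor showed wider gaps, 1070.5 against 1554 and 638 against 1026. CCT genes had a median of -0.01, and Dnaja1 and Dnajb1 had log2 ratios of -0.01 and -0.14.

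Dnajc28, a J protein gene, was the 1 member at least 1.5-fold higher in DSSPAR than in DSS, at 44.8 and 28.3 (log2 0.66). Its DSS value lay close to the floor of 25.1. Dnajc18, another J protein gene, read 32.6 in DSSPAR and 59.9 in DSS (log2 -0.88), both not far above the floor. Dnajc21, a ribosome biogenesis factor, read 193 in DSSPAR and 304 in DSS (log2 -0.66) and 154 and 208 by another probe set. Bag2, which inhibits the ubiquitin ligase CHIP, read 51.1 in DSSPAR and 68.9 in DSS (log2 -0.43). These J-domain and BAG genes give no shared direction: DNAJC genes split 9 above and 14 below 0.

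DSSPAR colon was also set against CON, the array that served DSS colon as well, so the comparisons are not separate observations. Of 70 measured members, 2 were at least 2-fold higher, Hspe1 and Hspa12a (3.51% of 11808 genes were), and 0 were lower (2.1% of genes). Past 2-fold in either direction were 2.86% of members and 5.61% of all genes. The members' median was 0.09 against 0.03 for all genes, with 38 above and 32 below 0. At 1.5-fold, 6 members (8.57%) were higher and 2 (2.86%) lower, where 11.3% and 8.37% of all genes were. Hspe1 read 1409.65 in DSSPAR and 639 in CON, 2.21-fold higher (log2 1.14), and its other probe set 445 and 281. The ratio came to 0.67 when probe sets of shared type were left out, 0.90 as the mean of both probe sets and 0.94 with quantile normalization. Hspa12a read 70.6 in DSSPAR and 32.9 in CON (log2 1.10) by a probe set of shared type, and 53.1 and 41.6 (log2 0.35) by the other. Dnajc15 was highest in DSSPAR and lowest in CON, with 732 in DSSPAR, 537 in DSS and 386 in CON (log2 0.92 for DSSPAR against CON). Hsph1 was 1.56-fold higher in DSSPAR than in CON (log2 0.65). All 7 chaperonin genes lay above 0 with a median of 0.21, but 4 of 7 did and the median was 0.01 under quantile normalization, where that of all genes was 0.06. Bag4 was the lowest member at 70.6 in DSSPAR and 121 in CON (log2 -0.78), and -0.22 with the floor at the 75th percentile. Another of its probe sets was nearly level, at 62.8 in DSSPAR and 64.3 in CON (log2 -0.03). The dimmest read 20.9 in DSSPAR, under the floor, and 34.2 in CON.

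Other features of the colon arrays differed along with these ratios. The 9 measured of 11 leukocyte markers on the array had a median of 1.68 in DSS against CON, 8 of them at least 2-fold higher, where 5.18% of all genes were. Summed over all 11, intensities were 6907 in DSSPAR, 7316 in DSS and 2167 in CON. Of 19 proliferation genes, 11 passed 2-fold upward in DSS against CON (median 1.27), and all 19 lay below 0 in DSSPAR against DSS (median -0.32). The 12 smooth muscle markers were all above the floor in the 3 arrays and summed to 19699 in DSSPAR, 20185 in DSS and 22883 in CON. The 12 endothelial markers on the array, 10 of them measured, summed to 538 in DSSPAR, 926 in DSS and 560 in CON. In DSSPAR against DSS, 9 of these 10 lay below 0 (median -0.54). Of them, 2 were at least 2-fold lower, where 1.24% of all genes were. Exocrine pancreas genes stood apart in DSS colon, where 13 of 13 on the array lay above the floor, against 3 of 13 in DSSPAR and 3 of 13 in CON; their sums were 2277 in DSSPAR, 5376 in DSS and 2822 in CON. An 18S ribosomal RNA control probe set read 390 in DSSPAR, 4018 in DSS and 6156 in CON. The part of these differences in the chaperone ratios was not tested.

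In liver, DSS against CON showed no shared direction over the families, and 1 gene far from the rest. Of 70 measured members, 4 were at least 2-fold higher, Dnajc12, Dnajc18, Dnajc27 and Bag3 (4.73% of 13034 genes were), and 2 at least 2-fold lower, Bag6 and Dnajc17 (4.2% of genes). The 8.57% of members past 2-fold in either direction was close to the 8.93% of all genes. The members split 35 above and 35 below 0, with a median of -0.00 against -0.02 for all genes.

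Dnajc12 encodes a J protein which in humans binds the aromatic amino acid hydroxylases, among them phenylalanine hydroxylase of liver; its loss in humans raises blood phenylalanine. Its intensity was 13576 in DSSPAR liver, 21646 in DSS liver and 2019 in CON liver, from the 1 probe set it has. It was thus 10.7-fold higher in DSS than in CON (log2 3.42), rank 17 from the top of 13034 genes, and 6.72-fold higher in DSSPAR than in CON (log2 2.75), rank 22 of 12721. Under the other scalings tried, the log2 ratio against CON lay between 2.69 and 3.06 for DSSPAR and between 3.31 and 3.57 for DSS. The floor and probe set settings could not move it, since Dnajc12 read far above the floor and has 1 probe set. With 1 probe set and 1 pool a group, neither probe nor animal spread can be given for it.

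Bag3 read 860 in DSSPAR liver, 656 in DSS liver and 288 in CON liver, with 1 probe set. It was 2.28-fold higher in DSS (log2 1.19) and 2.99-fold higher in DSSPAR (log2 1.58) than in CON, though with the higher floor, at the 75th percentile, the DSS ratio was 0.84. Its partner Hspb8 read 5308 in DSSPAR, 6837 in DSS and 3433 in CON (log2 0.99 for DSS and 0.63 for DSSPAR against CON). A second probe set of Hspb8 had 1341, 1336 and 872 in these groups, and the dimmest had 211, 279 and 337, the other way round. Dnajc18 and Dnajc27 crossed the floor and so have lower bounds: at least 2.67-fold higher in DSS for Dnajc18 (258 in DSS, 84.3 in CON) and at least 2.56-fold for Dnajc27 (248 and 84.5). Of the 2 other probe sets of Dnajc18, 1 was lower in DSS, at 152 against 165. Dnajc27, a gene of a small GTPase with a J domain, had its other probe set at 108 in DSS and 61.6 in CON. As means over probe sets these ratios for DSS against CON came to 0.51 for Dnajc18 and 0.76 for Dnajc27.

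**Figure D3:**
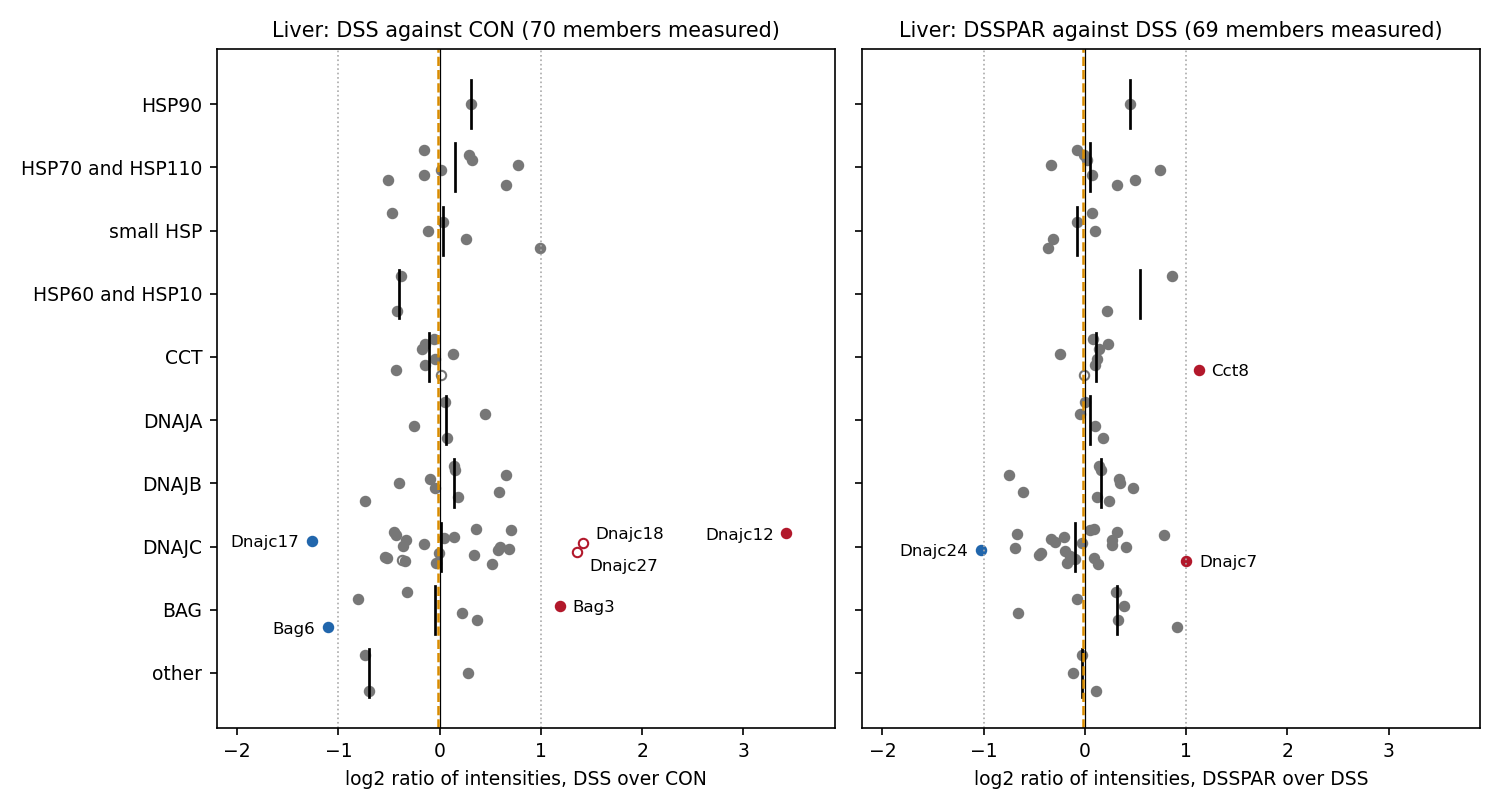
Log2 ratios of intensities in liver for each measured member, by family, with DSS over CON on the left and DSSPAR over DSS on the right. Black bars are family medians, the dashed line is the median of all measured genes, dotted lines mark 2-fold, and open circles have 1 array at the floor. Dnajc12 lies at 3.42 in DSS against CON, far to the right of every other member, and the families scatter on both sides of 0.

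Lower in DSS liver were Bag6, a quality control factor for tail-anchored and mislocalised proteins, and Dnajc17, a J protein tied to splicing. Bag6 read 110 in DSS, near the floor of 96.6, and 237 in CON (log2 -1.11, and -0.96 with arrays centred on their medians). The DSSPAR array was at 206. Dnajc17 read 1043 in DSS and 2502 in CON (log2 -1.26), and 849 in DSSPAR (log2 -1.56 against CON). As means over its probe sets, the others of which were dim, the ratios of Dnajc17 against CON came to -0.30 for DSSPAR and -0.41 for DSS. Bag2 read 184 in DSS and 321 in CON (log2 -0.80).

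The genes that rise together in heat shock lay on both sides of 0 in DSS liver. Hsph1 was higher by both probe sets, 1425 and 446 in DSS against 906 and 249 in CON (log2 0.65 for the representative one). Hsp90aa1 read 10492 in DSS and 8455 in CON (log2 0.31), with its 2 other probe sets above the floor on the same side. The mitochondrial pair was lower, with Hspd1 at 9051 in DSS and 11830 in CON (log2 -0.39) and Hspe1 at 8166 and 10944 (log2 -0.42). Hspb1 was lower too, at 488 in DSS and 674 in CON (log2 -0.47), and 268 and 507 by its other probe set. Hspa8 read 29373 in DSS and 32764 in CON (log2 -0.16), with all 4 probe sets lower, and CCT genes had 6 of 8 below 0 with a median of -0.10. Relative to all genes that median was -0.08, and -0.11 with arrays centred on their medians. Dnajc10, an ER disulphide reductase that supplies clients to BiP, read 1620 in DSS and 992 in CON (log2 0.71), and all 3 of its probe sets were higher.

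Probe sets of the inducible HSP70 gene Hspa1b disagreed in liver. The brightest read 1700 in DSSPAR, 1715 in DSS and 1407 in CON, whereas the other probe sets read 541, 250.3 and 485, and 719, 254 and 526, with DSS the low array. The representative log2 ratio of 0.29 for DSS against CON therefore depends on which probe set is read, and reads cannot be assigned to Hspa1a or Hspa1b with certainty. No direction is given for this gene in liver.

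**Figure D4:**
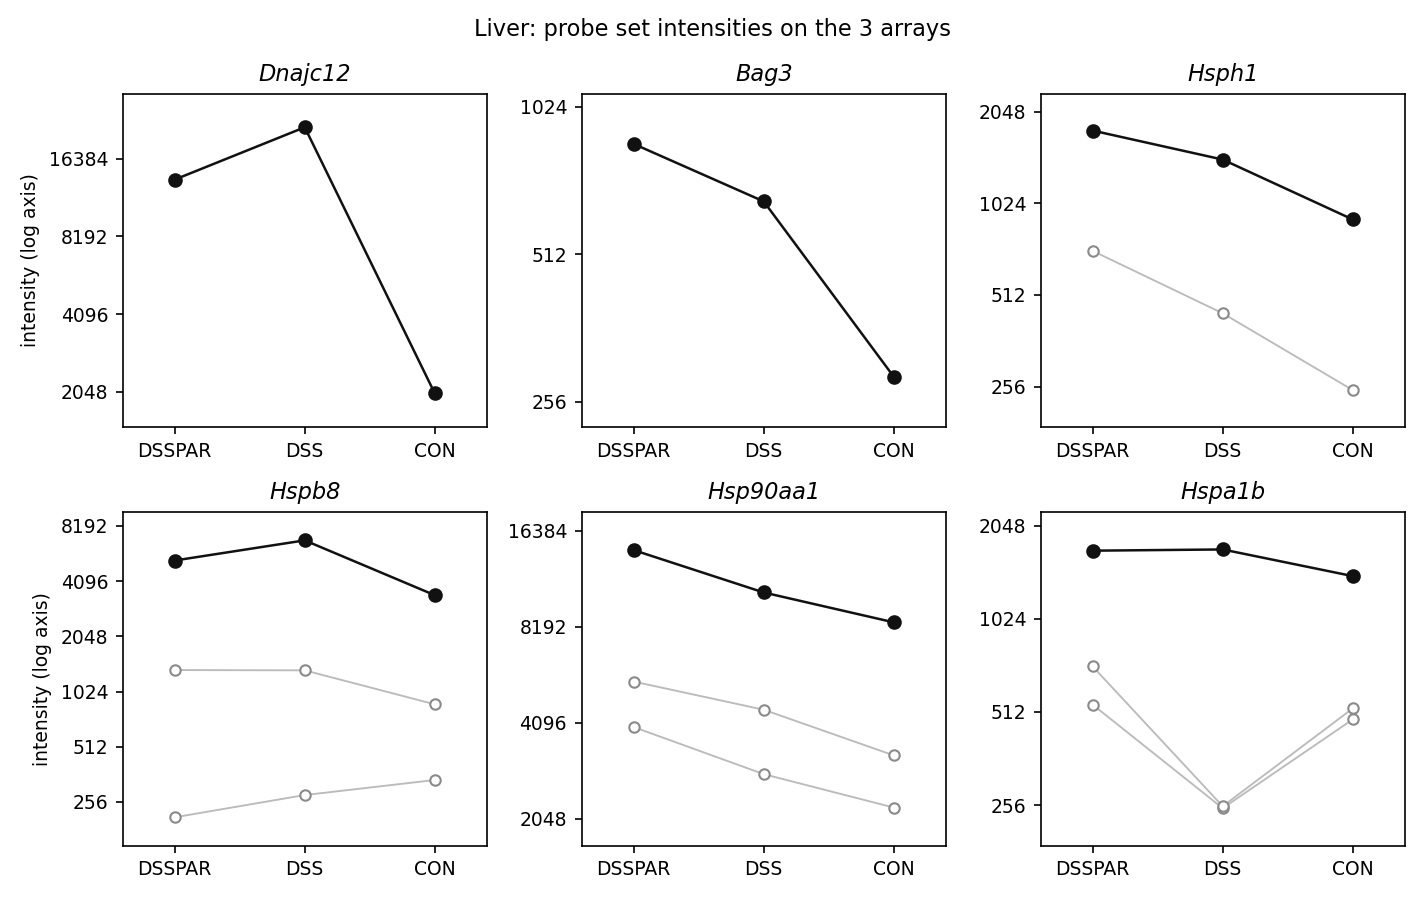
Intensities on the 3 liver arrays for 6 genes, on a log axis, with DSSPAR, DSS and CON from left to right. Filled points and black lines are the probe set that represents the gene, and open points are its other probe sets above the floor in at least 1 array. Dnajc12 and Bag3 are lowest in CON, Hsph1 and Hsp90aa1 are highest in DSSPAR by every probe set shown, and the 3 probe sets of Hspa1b go different ways.

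In DSSPAR liver against DSS liver, 2 members were at least 2-fold higher, Cct8 and Dnajc7 (2.8% of 12398 genes were), and 1 was at least 2-fold lower, Dnajc24 (4.23% of genes). Past 2-fold in either direction were 4.35% of members and 7.03% of all genes. Members lay slightly higher in DSSPAR, with 41 of 69 above 0 and a median of 0.09 against -0.02 for all genes. At 1.5-fold, 6 members were higher and 6 lower, 8.70% each, where 12.8% and 15.0% of all genes were. Cct8 read 3179 in DSSPAR and 1459 in DSS (log2 1.12), with CON at 1969; the mean with its other probe set, which lay far under the floor, turned the ratio to -0.58. By their representative probe sets, the 7 other CCT genes measured lay between -0.25 and 0.23. Other probe sets of Cct2, Cct3 and Cct7 gave up to 0.49, 0.71 and 0.52, while those of Cct4 lay on both sides of 0. As the mean over its probe sets, dim ones included, Cct3 came to 1.10. Dnajc7, a J protein with TPR repeats that links HSP70 and HSP90, read 1213 in DSSPAR, 605 in DSS and 768 in CON (log2 1.00), just past the threshold, and 0.95 and 0.96 under 2 other scalings. Dnajc24, of the diphthamide pathway, read 261 in DSSPAR, 531 in DSS and 331 in CON (log2 -1.03), and 141, 211 and 196 by its other probe set (log2 -0.58). It passed 2-fold in 3 of 7 settings, and over these its ratio lay between -1.07 and -0.53, the smallest with the higher floor. Hspd1 read 16478 in DSSPAR and 9051 in DSS (log2 0.86), with CON at 11830, and Hspe1 9498 and 8166 (log2 0.22). Dnajc12 was lower in DSSPAR than in DSS, 1.59-fold (log2 -0.67).

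Hsp90aa1 and Hsph1 had the same order of arrays in liver by every probe set above the floor, with DSSPAR highest and CON lowest. For Hsp90aa1 the values were 14251, 5511 and 3967 in DSSPAR, 10492, 4496 and 2823 in DSS, and 8455, 3233 and 2217 in CON. For Hsph1 they were 1775 and 715 in DSSPAR, 1425 and 446 in DSS, and 906 and 249 in CON. The liver DSSPAR and CON arrays thus differed by 1.69-fold for Hsp90aa1 (log2 0.75) and 1.96-fold for Hsph1 (log2 0.97).

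Over all members in DSSPAR against CON liver, 3 were at least 2-fold higher, Dnajc12, Bag3 and Dnajc18 (3.26% of 12721 genes were), and 1 was lower, Dnajc17 (3.45% of genes). Past 2-fold in either direction were 5.80% of members and 6.71% of all genes. The median was 0.02 against -0.04 for all genes. At 1.5-fold, 13 of 69 were higher (18.8%) and 5 lower (7.25%), where 11.2% and 13.4% of all genes were. The 13 included Hsp90aa1, Hsph1, Bag3, Hspb8, Hspa4l (log2 0.75), Bag5 (log2 0.70), Cct8 (log2 0.69) and Dnajc10 (log2 0.76). Among members with several probe sets above the floor, 22 of 45 had them all on the same side of 0 (48.9%, and 49.9% of all such genes).

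A list of 15 known HSF1 targets among these genes describes the stress-inducible core. In DSS colon against CON, 14 of 15 lay above 0 with a median of 0.42, 2 of them past 2-fold. Of all genes 54.1% lay above 0, their median was 0.04, and 5.18% were at least 2-fold higher. In DSSPAR colon against DSS colon 13 of 15 lay below 0 with a median of -0.13, where 48.3% of all genes lay above 0 and their median was -0.01. With arrays centred on their medians the list's median was 0.07, but that of all genes was 0.18, so 11 of 15 lay below the median of all genes there and 12 of 15 as reported. In DSSPAR colon against CON 11 of 15 lay above 0 with a median of 0.29, 1 of them at least 2-fold higher. Of all genes 52.6% lay above 0, their median was 0.03, and 3.51% were at least 2-fold higher. Under quantile normalization the list's median was 0.14 there and that of all genes 0.06. In liver, 8 of 14 lay above 0 in DSS against CON with a median of 0.03, 12 of 14 in DSSPAR against DSS with a median of 0.18, and 11 of 14 in DSSPAR against CON with a median of 0.36. The shares of all liver genes above 0 were 48.6%, 48.5% and 46.2% in these comparisons, and their medians -0.02, -0.02 and -0.04. Comparisons of a tissue share arrays, so these counts are not separate observations.

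Heat shock factors and cochaperones that the symbols leave out had 31 genes on the array. In DSS colon 22 of 30 measured lay above those of CON, with a median of 0.33 and 0 past 2-fold in either direction (7.15% of all genes were). The highest were Stip1, the HOP adaptor between HSP70 and HSP90 (log2 0.81), Serpinh1, the collagen chaperone HSP47 (log2 0.79), and the prefoldin gene Pfdn2 (log2 0.70). In DSSPAR colon against CON 24 of 29 lay above 0, with a median of 0.34. In DSS liver against CON the median was 0.03, and 3 of 31 were at least 2-fold higher, where 4.73% of all genes were: the factor Hsf2 (log2 1.53), the HSP90 cochaperone and glucocorticoid target Fkbp5 (log2 1.07), and Pfdn4 (log2 1.06). In DSSPAR liver against DSS liver Pfdn4 (log2 -2.16) and Pfdn1 (log2 -1.04) were at least 2-fold lower, and Clpb, a mitochondrial disaggregase gene (log2 1.12), was higher. Of all genes, 4.23% were at least 2-fold lower there and 2.8% at least 2-fold higher.

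Other arms of protein quality control differed from these families in size. In DSS colon against CON, 20 of 21 ER chaperone and unfolded protein response genes lay above 0 (median 0.30), 4 of them past 2-fold (Creld2, Sdf2l1, Manf and Dnajb11), and 37 of 38 measured proteasome subunit genes did (median 0.51), 3 of them past 2-fold. Of all genes, 5.18% were at least 2-fold higher there. In DSS liver the ER list was higher, with 18 of 21 above 0 and a median of 0.50, whereas the proteasome list had a median of -0.10 and the chaperone families -0.00. In DSSPAR liver against CON the ER list had a median of 0.48 with 18 of 21 above 0. No test of the difference between lists was possible with 1 array per group.

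In liver, too, other genes differed along with these ratios. Leukocyte markers summed to 26770 in DSSPAR, 27044 in DSS and 15558 in CON, with 8 of 8 measured above 0 in DSS against CON. Proliferation genes had medians of 1.01 in DSS and 1.42 in DSSPAR against CON. Among hepatocyte markers 7 of 10 lay above 0 in DSS against CON (median 0.21), and 7 of 10 below 0 in DSSPAR against DSS (median -0.55). The 18S ribosomal RNA control probe set read 58100 in DSSPAR, 93321 in DSS and 65528 in CON. Of 11 measured immediate early genes, 3 passed 2-fold upward in DSS liver against CON, Fos (log2 2.39), Egr1 (log2 1.31) and Atf3 (at least 2.11-fold), and 2 passed it downward, Dusp1 (log2 -1.57) and Myc (log2 -1.42). Of all genes, 4.73% passed it upward and 4.2% downward. The part of these differences in the ratios of Dnajc12, Bag3 and the other liver members was not tested.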

How the data were processed

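Affymetrix Mouse Genome 430 2.0 arrays were hybridised with pooled RNA of 7 mice, 1 array per group and tissue, with groups and tissues taken from the labels. The deposited values are linear intensities that the authors made with MAS5, per the submitters' processing notes; the sources used here name neither a version nor a scaling target. After trimming 2% of probe sets from either end, mean intensity was 106 to 111 in colon and 500.0 in liver arrays.

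Names came from the platform annotation: of 45101 probe sets, 34958 had 1 symbol, 932 several and 9211 were not listed. All 82 members were found by Entrez identifier in the RefSeq table. A gene was represented in a tissue by its brightest probe set on average (mean of log2 intensities). Values under the floor (the tissue's median) were raised to it, so such folds are lower bounds. Log2 ratios were taken within a tissue, and genes past 2-fold counted. With 1 array per group, no test was run, and precision is limited by the number of arrays. The robust SD between probe sets is the interquartile range divided by 1.349.

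Members, gene lists and the naming rule were chosen with earlier results of these data known. Named are members past 2-fold in any comparison, the brightest 3 of a tissue, the 3 with the largest ratios per family and comparison, and up to 4 genes of each other list. Hspa1b was picked after its values were seen. Lists other than those described covered clock, enteric neuron, and testis and skeletal muscle genes. Ratios were tested on simulated data. Alternatives were a 75th percentile floor, no floor, 3 other scalings, the mean over probe sets, leaving out shared probe sets (65 of the 195), a 1.5-fold threshold, and cytosolic members only. Python 3.11.15, NumPy 2.4.6, pandas 2.3.3, SciPy 1.17.1 and matplotlib 3.10.9 were used.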

Additional observations from a re-analysis of the deposited data

Results flagged for a closer look

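Hspd1, which encodes mitochondrial HSP60, lay on opposite sides of 0 in the tissues for DSSPAR against DSS. It read 1540 in DSSPAR colon and 2169 in DSS colon (log2 -0.49), and 16478 in DSSPAR liver and 9051 in DSS liver (log2 0.86). The colon ratio minus the liver ratio was -1.36 log2 units. Both ratios come from the gene's 1 probe set and from 1 pool per group, and the difference between tissues was not tested.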

How the results depend on the processing

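No paired analysis was possible because each group has 1 array, and none could be left out. Of 156 counts and medians recomputed under the alternatives, 101 stayed within the limits set, 48 moved beyond them and 7 medians changed sign; of 2080 ratios of named genes, 2013 stayed, 66 moved and 1 reversed (Cct8 in DSSPAR liver against DSS liver, -0.58 as the mean over probe sets). Counts of members at least 2-fold higher or lower are meant below. With a 75th percentile floor, 1 was higher in DSSPAR colon against CON, 1 higher and 1 lower in DSS liver against CON, and 0 lower in DSSPAR liver against DSS. Counts for all genes, in that order, were 208 of 7300, 275 and 195 of 7420, and 230 of 7420. With no floor, 4 were higher and 4 lower in DSS colon against CON, 4 higher and 2 lower in DSSPAR colon against DSS, 3 lower in DSSPAR colon against CON, 9 lower in DSS liver against CON, 4 lower in DSSPAR liver against DSS, and 9 lower in DSSPAR liver against CON (median -0.037). All 82 members and all 18194 genes entered there. Counts for all genes, in that order, were 1850 and 1719, 1295 and 1532, 1842, 2750, 2632, and 2991 (median -0.095). With arrays centred on their medians, the members' median was 0.11 in DSSPAR colon against DSS, 0.37 in DSSPAR colon against CON, 0.12 in DSS liver against CON (1 lower), 0.25 in DSSPAR liver against DSS (4 higher, 0 lower) and 0.33 in DSSPAR liver against CON (9 higher). This setting shifts all genes too, to medians of 0.18, 0.30, 0.12, 0.13 and 0.25 in that order. Of all genes, 349 of 12799 were lower in DSS liver against CON, and 1007 of 12681 higher in DSSPAR liver against CON. In DSSPAR liver against DSS, 674 of 12615 genes were higher and 332 lower. Centring on probe sets above the floor gave 1 higher in DSS colon against CON, a median of -0.0031 in DSSPAR colon against DSS, 1 higher in DSSPAR liver against DSS and a median of -0.0395 in DSSPAR liver against CON. For all genes these were 589 of 11896, a median of 0.07, 294 of 12367 and a median of -0.10. Quantile normalization gave 1 higher in DSSPAR colon against CON (482 of 11862 genes) and 1 in DSSPAR liver against DSS (349 of 12610 genes). The mean over probe sets gave 1 lower in DSSPAR colon against DSS, 0 higher in DSSPAR colon against CON, 2 higher and 4 lower in DSS liver against CON, 0 lower in DSSPAR liver against DSS, and 2 lower with a median of -0.011 in DSSPAR liver against CON. For all genes these were 163 of 10252, 328 of 10375, 476 and 539 of 11244, 397 of 10629, and 386 of 10976 with a median of -0.06. Without shared probe sets, 0 were higher in DSS colon and 0 in DSSPAR colon against CON, 1 was lower in DSS liver against CON (median 0.041) and 0 in DSSPAR liver against DSS. For all genes these were 503 of 10300, 334 of 10145, 486 of 11333 (median -0.02) and 459 of 10688. Hspb1 had no ratio in colon under this setting, so its call was lost for want of a probe set. At 1.5-fold, 12 were higher and 3 lower in DSS colon against CON, 1 and 7 in DSSPAR colon against DSS, 6 and 2 in DSSPAR colon against CON, 12 and 6 in DSS liver against CON, 6 and 6 in DSSPAR liver against DSS, and 13 and 5 in DSSPAR liver against CON. Of all genes, 14.2% and 14.9% were in DSS liver against CON, and the other shares stand with each comparison above. With cytosolic members only, 1 was higher in DSS colon and 1 in DSSPAR colon against CON (5.18% and 3.51% of all genes). This setting left out a list of 16 genes that is not complete, and it kept Hspb11. The median in DSS liver against CON was 0.024, against -0.02 for all genes. The cause of these shifts was not tested, beyond fewer genes or probe sets entering where a floor or filter removes them. Dnajc12 passed 2-fold in liver against CON in 7 of 7 settings for both groups, Bag3 in 7 of 7 for DSSPAR and 6 of 7 for DSS (0.84 with the higher floor). Both genes have 1 probe set and lay above the floor, so the probe set and no-floor settings could not change these calls. Signal near the floor limits Hspa12a, Bag6, Dnajc18 and Dnajc27.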

Other observations

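Lists of genes outside the chaperone families had these values, given without explanation. Clock and cold-inducible genes had 10 of 12 below 0 in DSS colon against CON (median -0.40), with Dbp at log2 -1.22, Per3 at -1.13 and the cold-inducible RNA-binding protein gene Cirbp at -0.43; in DSS liver against CON the list's median was -0.09. Of 10 enteric neuron and glia markers on the array, the 7 measured all lay below 0 in DSSPAR colon against DSS colon (median -0.54). Summed over all 10, intensities were 385 in DSSPAR, 582 in DSS and 546 in CON. Of 12 testis and skeletal muscle genes on the array, 4 were measured in DSS colon against CON. Summed over all 12, intensities were 433 in DSS and 218 in CON.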
